A study of Mus musculus with 20 samples.

Results

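The comparison described here is that of whole brain total RNA between late-symptomatic spinal muscular atrophy (SMA) mice and their control littermates at postnatal day 7. Of the 45700 genes in the deposited expression table, 14539 were compared, namely those that averaged 1 FPKM or more and were above 0 in each of the 6 libraries. FPKM is the number of fragments mapped to a gene, scaled to the length of its transcripts and to the size of the library. Of the 20 libraries in the series, 3 were from SMA brains and 3 from control brains in this comparison, and the labels call them biological triplicates. The SMA mice were of the 'Taiwanese' severe model on a congenic FVB background and lacked both copies of murine Smn while carrying human SMN2 (Smn -/-; SMN2tg/0). Control mice had 1 intact Smn copy and the same transgene (Smn -/+; SMN2tg/0), so the human transgene was present in both groups. Cytoplasmic lysates were separated on sucrose gradients, and total RNA was the RNA pooled over all of the gradient fractions. The paper describes it as total cytoplasmic RNA, so the values here are not whole-cell levels. The other libraries of the series came from polysomal fractions and from brains at the early-symptomatic stage, postnatal day 5.

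SMN is the core of a complex that assembles Sm proteins onto small nuclear RNAs (snRNAs), the RNA subunits of the spliceosome, and its loss is best known for the degeneration of spinal motor neurons. Brain capillaries are lined by endothelial cells with tight junctions and dedicated transporters, surrounded by pericytes and by the endfeet of astrocytes, and together these form the blood-brain barrier. The choroid plexus, a secretory epithelium in the ventricles, makes the cerebrospinal fluid.

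Smn1, the disrupted gene, was measured at 13.56, 14.09 and 16.7 FPKM in the controls, against 11.94, 12.65 and 17.49 FPKM in SMA brain (GRCm38 chr13:100124852-100137690). The groups overlapped, with means of 14.8 ± 1.68 (SD, n = 3) and 14.03 ± 3.02 (SD, n = 3). A value per gene does not separate the exons of Smn1, and the assignment of reads from the human transgene was not tested, so this value is no check of the labels. Libraries also differed in ways that genotype did not follow. Xist, the RNA of the inactive X chromosome, was at 9.22 and 8.41 FPKM in control replicates 1 and 2 and at 6.69 FPKM in SMA replicate 3, and at 0.19 FPKM or less in the remaining libraries. Mbp, a major myelin protein, was at 68.08, 172.3 and 183.81 FPKM in the controls, against 214.99, 187.58 and 109.46 FPKM with SMA. Pcp2, a gene of cerebellar Purkinje cells chosen after its values were seen, ran from 3.31 FPKM in control replicate 1 to 83.58 FPKM in SMA replicate 1, with SMA replicate 3 at 3.73 FPKM. Control replicate 1 and SMA replicate 3 were thus the lowest libraries of their groups for both of these markers. The part of sex and of the regional make-up of the samples in the results below was not tested beyond the fits with the Xist level as a covariate and without single libraries.

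Values were compared as log2(FPKM + 0.1) with limma, and a gene is called here at an unadjusted p under 0.05, with the Benjamini-Hochberg adjusted p over all compared genes beside it. Log2 changes are SMA relative to control, and the added 0.1 FPKM understates the change of weakly expressed genes. By this rule 1439 genes were called, 9.90% of those compared. Of these, 688 were higher in SMA brain (4.73% of compared genes) and 751 were lower (5.17%). At an adjusted p under 0.05, 29 genes (0.199%) remained, 16 higher and 13 lower. This count was sensitive to each of the 6 libraries and ran from 0 without control replicate 2 to 18 without control replicate 3, but all 29 genes kept their direction and an unadjusted p of 0.00105 or less under every alternative that measured them. An exact permutation test of 3 against 3 libraries cannot fall below p = 0.1, so single genes rest on the spread that limma estimated across genes. The median log2 change over all genes was 0.00081, and 0.633% of them changed by more than 1 on the log2 scale. The log2 values correlated at 0.981 to 0.9882 (Pearson's r across genes) between any pair of the 6 libraries. In whole-brain RNA, fewer cells of a type and less RNA per cell cannot be told apart.

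**Figure D1:**
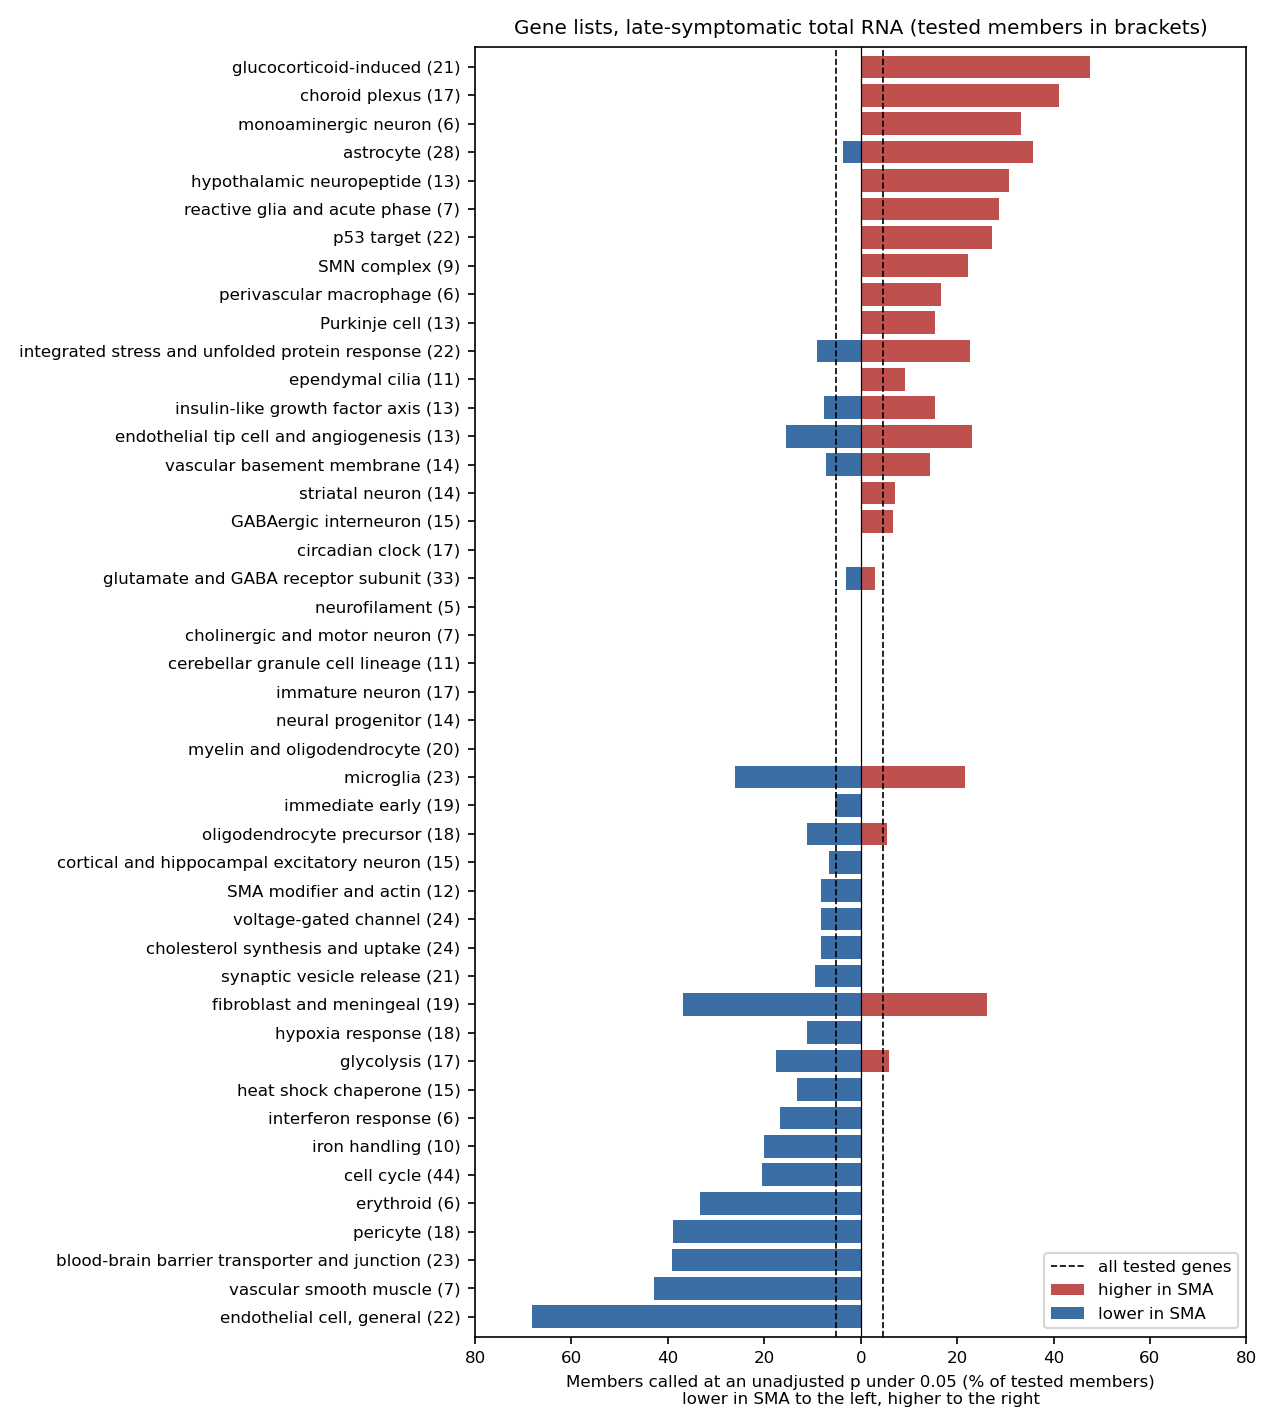
Share of the measured members of each gene list (those with at least 5) that were called higher or lower in SMA brain at an unadjusted p under 0.05, in percent. Dashed lines mark the shares over all compared genes (4.73% higher, 5.17% lower); the endothelial list (68.2% lower), the barrier and the pericyte lists extend to the lower side, the tip cell list to both sides, and glucocorticoid-induced and choroid plexus genes to the higher side.

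Genes of brain endothelial cells were lower in late-symptomatic SMA brain. Of 22 measured genes on a list of 24 general endothelial markers, 15 fell (68.2%, against 5.17% of all genes) and none rose, and 21 had a log2 change below 0, with a median of -0.59. Cldn5, the main claudin of the brain endothelial tight junction, measured 25.96, 30.1 and 34.46 FPKM in the controls and 14.09, 15.46 and 14.22 FPKM in SMA brain (chr16:18776847-18778262). All SMA values lay below all control values, and the log2 change was -1.03 (SE 0.11, adjusted p = 0.0213). Tek, the receptor for angiopoietins, measured 2.74, 3.3 and 3.8 FPKM in the controls and 1.0, 0.97 and 0.93 FPKM in SMA brain (chr4:94739289-94874976), a log2 change of -1.65 (SE 0.16, adjusted p = 0.0175). The transcription factor gene Erg went from 1.98, 2.24 and 1.95 FPKM to 0.83, 0.73 and 0.79 FPKM (log2 change -1.29, SE 0.16, adjusted p = 0.0414). Tie1, the orphan partner of Tek, was at 2.52, 2.59 and 3.13 FPKM in the controls and at 0.93, 1.36 and 1.14 FPKM in SMA brain, with a log2 change of -1.20 (SE 0.18, adjusted p = 0.0828). None of these 4 genes had overlapping groups.

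Further list members, named after their values were seen, covered growth factor signalling and adhesion. Kdr, the main VEGF receptor, changed by -0.63 on the log2 scale, the TGF-beta co-receptor gene Eng by -0.88, the phosphatase gene Ptprb by -0.81, and the junction genes Cdh5 and Pecam1 by -0.78 and -0.53, all with unadjusted p under 0.05. The list did not move as a block. Egfl7, an angiogenic factor secreted by endothelium and among the most abundant of the markers, measured 24.05, 22.53 and 30.85 FPKM in the controls and 24.43, 25.51 and 25.05 FPKM in SMA brain (log2 change -0.03, adjusted p = 0.949). Emcn, Vwf, Cd34 and Podxl, other endothelial surface or secreted proteins, were not called either, with log2 changes of 0.26, -0.16, -0.17 and -0.04. Summed over the list, the level was 139.96, 157.21 and 175.85 FPKM in the controls and 105.32, 118.72 and 108.0 FPKM in SMA brain. Tek and Erg averaged under 1 FPKM in SMA brain and so passed the filter through the controls, which leaves 13 lower genes with both group means at 1 FPKM or more, and with a minimum of 0.1 FPKM 16 of all 24 were lower (4.94% of 19931 genes). The count of lower genes was 12 without control replicate 3 and 16 without control replicate 1 or SMA replicate 2, and it was 3 of 5 where only genes averaging 5 FPKM or more were kept.

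Receptors and ligands of vessel sprouting moved in both directions. Of 13 measured genes of the tip cell and angiogenesis list, 3 rose and 2 fell (23.1% and 15.4%, against 4.73% and 5.17% of all genes). Aplnr, the apelin receptor, showed the largest change of the list, from 12.33, 13.24 and 16.8 FPKM in the controls to 3.53, 3.4 and 4.75 FPKM in SMA brain (chr2:85136225-85139923), a log2 change of -1.84 (SE 0.16, adjusted p = 0.00981). Its ligand gene Apln was at 5.12, 4.79 and 5.52 FPKM in the controls and at 6.41, 6.86 and 5.57 FPKM in SMA brain (log2 change 0.28, adjusted p = 0.471), and the call of the ligand was lost with the Xist level as a covariate and without control replicate 1, control replicate 2, SMA replicate 1 or SMA replicate 2. With a replicate block the call was lost as well. Angpt2, a Tek ligand that is made by remodelling endothelium, measured 0.97, 0.95 and 0.94 FPKM in the controls and 2.13, 1.54 and 1.53 FPKM in SMA brain, a log2 change of 0.78 (SE 0.19, adjusted p = 0.25). It passed the filter of 1 FPKM only through the SMA libraries, so the list held 2 higher genes whose control and SMA means were both at least 1 FPKM. Vegfa, the growth factor that drives sprouting, was not called (log2 change -0.06, adjusted p = 0.861). Only 1 gene of the list rose without control replicate 1, control replicate 2, SMA replicate 1 or SMA replicate 2.

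**Figure D2:**
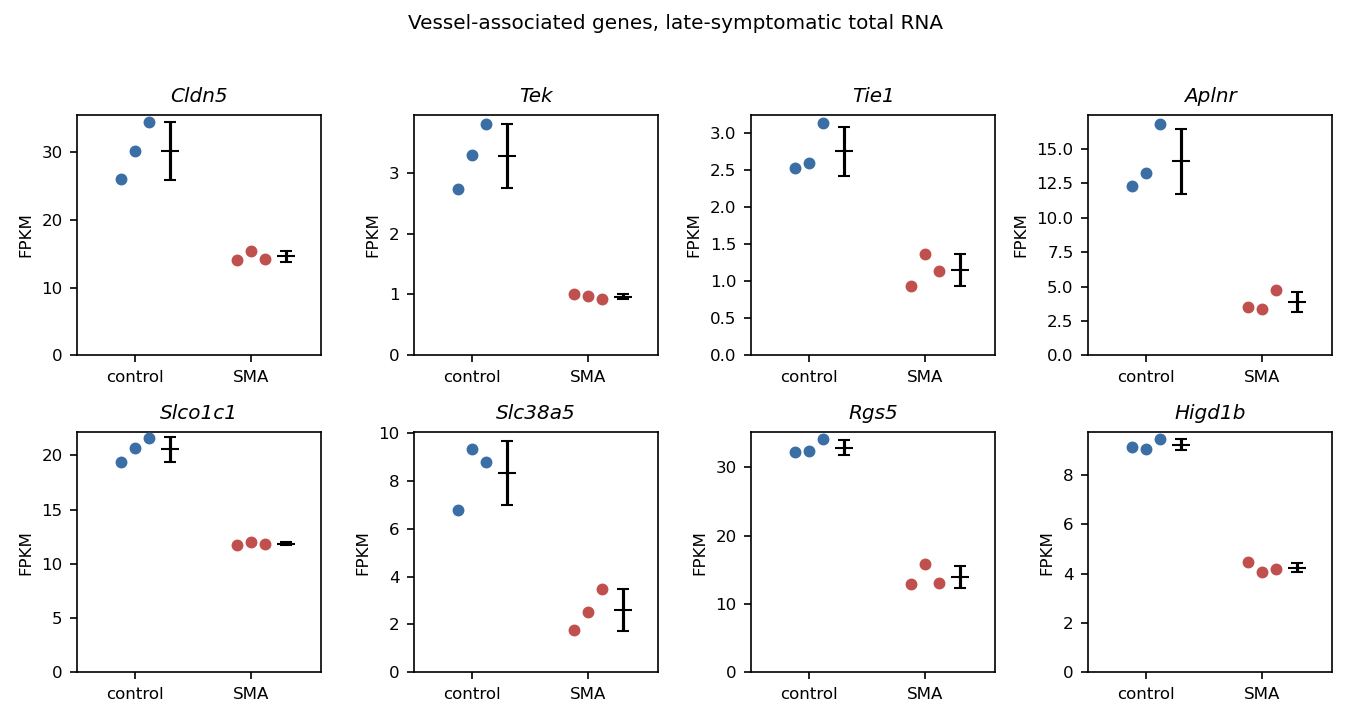
FPKM of 8 vascular genes in each late total RNA library; points are the 3 control and 3 SMA libraries and bars the mean ± SD. In each panel the highest SMA library lies below the lowest control library, as for Cldn5 (15.46 against 25.96 FPKM) and Rgs5 (15.79 against 32.14 FPKM).

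Transporters of the blood-brain barrier fell in part. Of 23 measured genes on the transporter and junction list, 9 were lower (39.1%, against 5.17% of all genes) and none higher. The median log2 change was -0.16. Slco1c1, a thyroid hormone transporter, measured 19.35, 20.7 and 21.58 FPKM in the controls and 11.76, 12.02 and 11.81 FPKM in SMA brain (chr6:141524368-141570177). The spread within groups was small, with means of 20.5 ± 1.12 (SD, n = 3) and 11.9 ± 0.138 (SD, n = 3), and the log2 change was -0.79 (SE 0.07, adjusted p = 0.00974). Slc38a5, a glutamine transporter, went from 6.79, 9.33 and 8.79 FPKM to 1.79, 2.52 and 3.5 FPKM (log2 change -1.67, SE 0.24, adjusted p = 0.0696). Slc16a1, which carries lactate and ketone bodies, measured 21.45, 24.79 and 22.57 FPKM in the controls and 14.29, 14.64 and 12.6 FPKM in SMA brain (log2 change -0.72, adjusted p = 0.0341). The zinc and manganese transporter gene Slc39a8 changed by -0.89 (adjusted p = 0.0655). In contrast, Slc2a1, the glucose transporter of the barrier, was at 10.21, 11.35 and 11.38 FPKM in the controls and at 11.12, 11.82 and 12.42 FPKM in SMA brain and was not called. Mfsd2a, which imports omega-3 lysolipids, and the tight junction genes Ocln and Tjp1 were not called, with log2 changes of 0.12, 0.20 and -0.01. Abcb1a, a drug efflux pump gene, passed the filter through the controls, as it averaged under 1 FPKM in SMA brain, which leaves 8 lower genes with both group means at 1 FPKM or more. Between 7 and 10 genes of the list were lower when any 1 library was left out, and 5 of 15 among genes averaging 5 FPKM or more.

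Part of the pericyte genes fell. Of 18 measured pericyte markers 7 fell (38.9%, against 5.17% of all genes) and none rose, with a median log2 change of -0.31. Rgs5, a regulator of G protein signalling, measured 32.14, 32.3 and 34.06 FPKM in the controls and 12.99, 15.79 and 13.09 FPKM in SMA brain (chr1:169655501-169695813; log2 change -1.23, SE 0.09, adjusted p = 0.0068). Higd1b, a small mitochondrial membrane protein gene, was at 9.12, 9.04 and 9.46 FPKM in the controls and at 4.46, 4.07 and 4.2 FPKM in SMA brain (log2 change -1.10, SE 0.08, adjusted p = 0.0068). Abcc9 and Kcnj8 encode the paired subunits of the vascular ATP-sensitive potassium channel. They changed by -0.82 and -0.72 on the log2 scale (adjusted p = 0.108 and 0.247). Among mural genes with contractile roles, 3 of 7 measured smooth muscle markers fell (42.9%). Of these, Smtn averaged under 1 FPKM in SMA brain and passed the filter through the controls. That left 2 with both group means at 1 FPKM or more. The most abundant of these was Myl9, a myosin light chain gene, at 12.81, 14.12 and 14.4 FPKM in the controls and 5.13, 11.41 and 8.08 FPKM in SMA brain (log2 change -0.81, adjusted p = 0.382). Summed pericyte levels were 102.97, 99.69 and 114.88 FPKM in the controls and 68.9, 75.51 and 71.27 FPKM in SMA brain, without overlap. Of the 4 pericyte genes averaging 5 FPKM or more, 3 were lower.

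Fibroblast and meningeal genes moved in both directions. Of 19 measured, 7 fell and 5 rose (36.8% and 26.3%, against 5.17% and 4.73% of all genes). The higher count went down to 3 without control replicate 1 or control replicate 2. Col1a1, a chain of fibrillar collagen, measured 35.67, 36.97 and 32.19 FPKM in the controls and 11.37, 14.93 and 16.85 FPKM in SMA brain (chr11:94936224-94953042; log2 change -1.29, SE 0.14, adjusted p = 0.0235). Its partner chain gene Col1a2 went from 28.83, 29.5 and 29.54 FPKM to 12.3, 16.62 and 18.34 FPKM (log2 change -0.91, adjusted p = 0.0861). Lum, a collagen-binding proteoglycan gene, changed by -0.94 (adjusted p = 0.0828). Among the genes that rose were the matrix gene Mgp, which inhibits calcification (log2 change 0.50), also chosen after its values were seen, Aldh1a2, which makes retinoic acid in the meninges, from 3.88, 3.81 and 4.28 FPKM to 5.84, 5.78 and 5.61 FPKM (log2 change 0.52, adjusted p = 0.125), and the meningeal transporter gene Slc6a13 (log2 change 0.69), chosen after its values were seen. Of 14 genes of the vascular basement membrane, Col4a2 and Sparc were called higher (log2 changes 0.48 and 0.32, adjusted p = 0.312 and 0.469) and Lama4 lower (-0.44, adjusted p = 0.335). That was 14.3% higher and 7.14% lower, against 4.73% and 5.17% of all genes. Between 1 and 3 genes of that list were higher when any 1 library was left out, with 1 without control replicate 1, control replicate 2 or SMA replicate 1. Sparc lost its call in each of these fits, with the Xist level as a covariate and with a replicate block.

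Several genes outside these lists that passed the adjusted threshold are known from vessels or immune cells. Ccl21a, a chemokine gene of lymphoid and lymphatic endothelial cells, had the largest fall of any protein-coding gene, from 6.68, 8.99 and 7.84 FPKM to 0.53, 0.87 and 0.74 FPKM (chr4:42772860-42773993; log2 change -3.30, SE 0.20, adjusted p = 0.00622). It passed the filter of 1 FPKM through the controls alone. The gene has near-identical copies, and how reads were shared among them is uncertain. Car4, a carbonic anhydrase on the capillary surface, was at 6.71, 6.73 and 6.85 FPKM in the controls and at 3.61, 3.18 and 3.71 FPKM in SMA brain (log2 change -0.93, adjusted p = 0.0193). Ly6a, which encodes the surface antigen Sca-1 and also belongs to a multigene family, rose from 3.67, 3.12 and 2.91 FPKM to 12.91, 9.87 and 9.36 FPKM (log2 change 1.69, SE 0.15, adjusted p = 0.00974). H2-T23, a non-classical class I histocompatibility gene, and Ighm, the constant region of IgM, fell by 0.96 and 0.76 on the log2 scale (adjusted p = 0.0178 and 0.0417). Car4 and Ly6a, both on the cell surface, thus moved in opposite directions.

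Astrocyte genes were called higher more often than lower. Of 28 astrocyte markers, all measured, 10 rose and 1 fell (35.7% and 3.57%, against 4.73% and 5.17% of all genes). The median log2 change was 0.22. Agt, the angiotensin precursor made by astrocytes, measured 9.34, 11.51 and 12.35 FPKM in the controls and 41.53, 30.97 and 35.39 FPKM in SMA brain (chr8:124556534-124569706). The lowest SMA library was above the highest control library, and the log2 change was 1.69 (SE 0.14, adjusted p = 0.00974). Aldoc, the aldolase isoform of astrocytes, rose from 107.2, 131.88 and 120.55 FPKM to 223.26, 196.43 and 193.96 FPKM (log2 change 0.77, SE 0.10, adjusted p = 0.0412). The growth factor receptor gene Fgfr3 rose from 19.74, 20.52 and 20.2 FPKM to 29.24, 30.66 and 27.73 FPKM (log2 change 0.53, SE 0.06, adjusted p = 0.0341). Htra1, a secreted serine protease gene, changed by 0.63 (adjusted p = 0.0686). Apoe, the most abundant marker and the main lipid carrier of the brain, was at 722.92, 806.05 and 808.65 FPKM in the controls and at 1038.68, 898.11 and 953.69 FPKM in SMA brain (log2 change 0.31, adjusted p = 0.384), and was not called without control replicate 1.

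Other astrocyte genes, named after their values were seen, differed among themselves. Gjb6, a gap junction gene, and Glul, the glutamine synthetase gene, rose by 0.90 and 0.47 on the log2 scale. Fabp7, a lipid-binding protein gene of radial glia and immature astrocytes, fell from 921.84, 924.34 and 1185.94 FPKM to 640.8, 731.71 and 664.32 FPKM (log2 change -0.57, adjusted p = 0.217). Gfap, the intermediate filament used as a sign of reactive astrocytes, was not called (log2 change 0.38, adjusted p = 0.546), nor were Aqp4, the endfoot water channel gene (-0.26), S100b (-0.01) and Aldh1l1 (0.01). Of 7 measured genes of the reactive glia and acute phase list, Serpina3n and C4b were called higher (28.6%, against 4.73% of all genes). Their log2 changes were 0.43 and 0.90 (adjusted p = 0.202 and 0.328), C4b passing the filter only through the SMA libraries. The cytokine genes Il6, Tnf, Il1b and Cxcl10 of this list were at 0 FPKM in at least 1 library and were not compared.

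**Figure D3:**
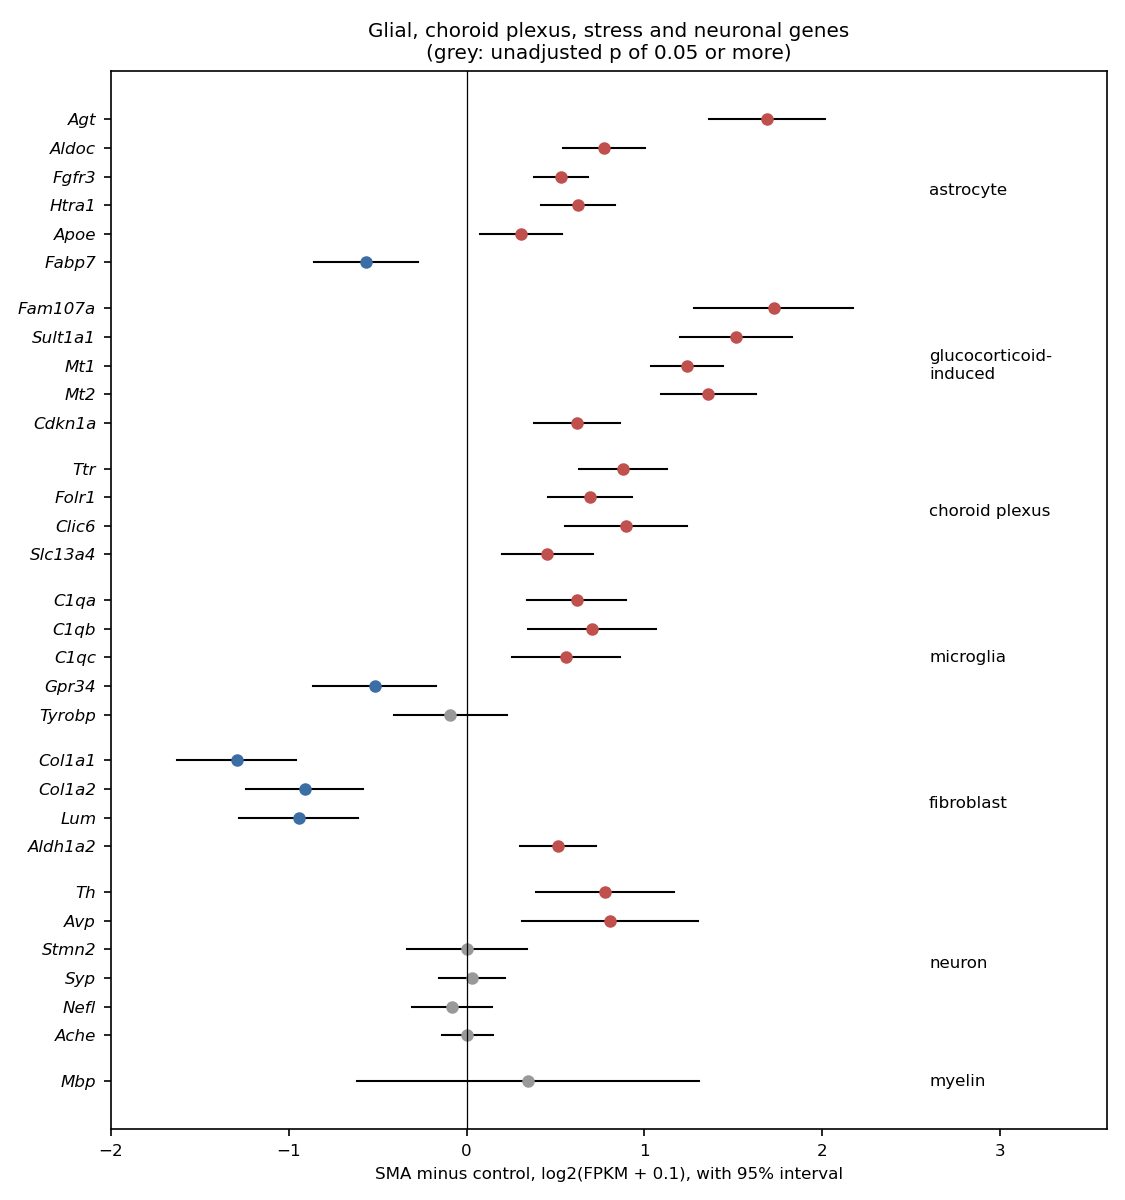
Log2 change of FPKM + 0.1, SMA relative to control, with 95% confidence intervals from limma (3 libraries per group), for genes of 7 groups; grey marks genes with an unadjusted p of 0.05 or more. Agt (1.69) and Fam107a (1.73) lie far to the right and Col1a1 (-1.29) to the left, while the synaptic and neurofilament genes lie near 0.

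Some of the genes known to be induced by glucocorticoids rose. Of 21 measured genes on this list 10 were higher and none lower (47.6% higher, against 4.73% of all genes), and 18 had a log2 change above 0, with a median of 0.16. The metallothionein genes Mt1 and Mt2, which bind zinc and copper and respond to metals as well as to glucocorticoids, were among them. Mt1 measured 145.89, 136.24 and 126.04 FPKM in the controls and 344.21, 324.04 and 296.51 FPKM in SMA brain (chr8:94179082-94180327; log2 change 1.24, SE 0.09, adjusted p = 0.0068). Mt2 measured 60.25, 49.16 and 49.0 FPKM in the controls and 119.23, 148.73 and 138.55 FPKM in SMA brain (chr8:94172664-94173568; log2 change 1.36, SE 0.11, adjusted p = 0.00974). Mt3, the neighbouring brain metallothionein gene, was not called, at 219.59, 197.1 and 214.27 FPKM in the controls and 212.45, 220.83 and 240.14 FPKM in SMA brain (log2 change 0.09, adjusted p = 0.739). Promoter windows of Mt1 and Mt2, the genes of this list that rose side by side on chromosome 8, are shown as context (RefSeq, GRCm38.p6, plus strand, 300 bases from 250 before to 50 after the start of each gene, chr8:94178839-94179138 and chr8:94172368-94172667). Capitals mark the core of the metal response element, TGCGCNC or TGCACNC, on either strand.
Mt1: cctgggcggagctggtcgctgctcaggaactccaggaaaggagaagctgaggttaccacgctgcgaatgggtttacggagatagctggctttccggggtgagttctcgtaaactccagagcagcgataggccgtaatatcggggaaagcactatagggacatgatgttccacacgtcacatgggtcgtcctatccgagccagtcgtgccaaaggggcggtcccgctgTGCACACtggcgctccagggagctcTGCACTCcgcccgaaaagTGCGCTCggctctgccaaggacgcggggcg
Mt2: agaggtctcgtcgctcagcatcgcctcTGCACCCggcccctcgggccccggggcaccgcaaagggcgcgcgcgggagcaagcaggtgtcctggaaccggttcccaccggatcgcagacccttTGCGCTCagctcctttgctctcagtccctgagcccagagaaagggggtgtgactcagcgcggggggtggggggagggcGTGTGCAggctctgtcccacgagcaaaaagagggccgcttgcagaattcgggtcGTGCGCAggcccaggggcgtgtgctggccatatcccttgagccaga
These letters occurred 3 times in the window of Mt1, 4 times in that of Mt2 and 1 time in that of Mt3. At least 1 match was found in 25.7% of 32841 promoters and at least 3 matches in 1.97%. A match is a description of the sequence and no evidence of binding.

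The remaining members differed in size. Sult1a1, a sulfotransferase gene, went from 2.2, 1.65 and 2.01 FPKM to 5.84, 6.02 and 5.35 FPKM (log2 change 1.51, SE 0.13, adjusted p = 0.00974). Fam107a, an actin-bundling stress gene, was at 4.07, 3.99 and 3.15 FPKM in the controls and at 16.74, 11.06 and 10.58 FPKM in SMA brain (log2 change 1.73, adjusted p = 0.0235). Fkbp5, a chaperone partner of the glucocorticoid receptor chosen after its values were seen, rose by 0.53 on the log2 scale. Other textbook targets were not called, with log2 changes of 0.12 for Tsc22d3, 0.05 for Sgk1 and 0.06 for Per1. Hif3a passed the filter only through the SMA libraries. Between 8 and 10 genes of the list rose when any 1 library was left out, and 6 of 14 that averaged 5 FPKM or more did so.

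Choroid plexus genes were called in the higher direction only. Of 17 measured markers 7 rose (41.2%, against 4.73% of all genes) and none fell, 16 had a log2 change above 0, and the median was 0.37. Ttr, the transthyretin that carries thyroid hormone in cerebrospinal fluid, measured 393.8, 393.36 and 363.62 FPKM in the controls and 794.26, 710.8 and 620.55 FPKM in SMA brain (log2 change 0.88, SE 0.11, adjusted p = 0.0341). The folate receptor gene Folr1 went from 9.19, 8.35 and 9.26 FPKM to 16.52, 13.28 and 13.84 FPKM (log2 change 0.69, adjusted p = 0.0749). Clic6, a chloride channel gene, and Slc13a4, a sulfate transporter gene, changed by 0.90 and 0.45 (adjusted p = 0.0997 and 0.247). Ttr made up most of the summed marker level, which was 463.98, 471.5 and 433.3 FPKM in the controls and 899.64, 801.49 and 705.37 FPKM in SMA brain. Whether the amount of choroid plexus in the tissue differed between groups was not tested. The genes of the ependymal cilia, which lie beside the choroid plexus in the ventricles, were called in 1 of 11 cases, Tekt4 (log2 change 0.92, adjusted p = 0.462), which passed the filter only through the SMA libraries and was not called without control replicate 1, control replicate 2, SMA replicate 1 or SMA replicate 3. Without single libraries 6 to 9 choroid plexus genes rose.

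Microglial genes moved both ways. Of 23 measured markers 5 rose and 6 fell (21.7% and 26.1%, against 4.73% and 5.17% of all genes). The complement genes rose together, C1qa from 14.63, 14.9 and 14.79 FPKM to 27.23, 19.47 and 22.17 FPKM (log2 change 0.62, adjusted p = 0.159), C1qb by 0.71 and C1qc by 0.56 (adjusted p = 0.212 and 0.241). Gpr34, a lysophospholipid receptor gene, went from 7.97, 8.53 and 5.82 FPKM to 5.36, 5.06 and 4.9 FPKM (log2 change -0.52, adjusted p = 0.341), and P2ry12 and P2ry13, purinergic receptor genes chosen after their values were seen, changed by -0.41 and -0.46, and each lost its call without control replicate 1, control replicate 2 or SMA replicate 2. The lower count rested on few libraries, as 1 gene fell without control replicate 2 and 2 fell without control replicate 1 or SMA replicate 2. Likewise 3 genes rose without control replicate 2. The neutrophil genes S100a8 and S100a9, which form the calprotectin dimer, had the largest rises of all protein-coding genes that did not overlap between groups. S100a8 was at 1.72, 1.41 and 0.53 FPKM in the controls and at 21.83, 2.09 and 6.16 FPKM in SMA brain (log2 change 2.48, SE 0.80, adjusted p = 0.392). SMA replicate 1 was by far the highest, and neither gene was called without control replicate 3. Only 3 of the 11 neutrophil markers passed the filter, and the granule genes Mpo and Elane and the surface gene Ly6g were at 0 FPKM in at least 1 library. Summed neutrophil markers were at 6.69, 5.6 and 3.58 FPKM in the controls and at 44.81, 7.5 and 13.53 FPKM in SMA brain, with S100a8 the most abundant. Of 6 measured genes of the red blood cell lineage 2 were called lower, the globin genes Hba-a2 and Hbb-bt (log2 changes -0.43 and -0.38), and none without control replicate 2 or control replicate 3.

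Other stress programs were examined through lists of their known target genes. Of 22 measured p53 targets 6 rose (27.3%, against 4.73% of all genes) and none fell. Cdkn1a, the p21 inhibitor of the cell cycle that is also on the glucocorticoid list, went from 13.5, 12.99 and 16.75 FPKM to 22.24, 22.67 and 21.3 FPKM (log2 change 0.62, adjusted p = 0.108). Eda2r, a p53-induced member of the TNF receptor family, was at 0.42, 0.5 and 0.8 FPKM in the controls and at 2.02, 1.98 and 1.03 FPKM in SMA brain (log2 change 1.38, adjusted p = 0.251). It passed the filter only through the SMA libraries, which leaves 5 genes called higher whose means were at least 1 FPKM in both groups, and the count of the list was 4 without control replicate 1, SMA replicate 1 or SMA replicate 2. Mdm2, the p53 ubiquitin ligase and a common p53 target, was not called (log2 change 0.05). In the integrated stress and unfolded protein response 5 genes of 22 rose and 2 fell (22.7% and 9.09%). Chac1, a glutathione-degrading enzyme gene, led with 3.47, 4.03 and 3.56 FPKM in the controls and 4.93, 6.22 and 8.27 FPKM in SMA brain (log2 change 0.77, adjusted p = 0.247), whereas the chaperone gene Hspa5 was called lower (-0.25). Only 3 of these genes rose without control replicate 1, control replicate 2 or SMA replicate 3. The heat shock list had 2 lower genes (13.3%, against 5.17% of all genes) and none higher of 15. The glycolysis list had 3 lower genes (17.6%) and 1 higher (5.88%) of 17, the latter being Aldoc. No heat shock gene was lower without control replicate 1, control replicate 2, SMA replicate 1 or SMA replicate 3. The lower glycolysis count was 0 without control replicate 1, 1 without control replicate 2 or SMA replicate 1, and 2 in the other fits that left out 1 library. Of 18 hypoxia-response genes none rose and 2 fell, and between 1 (without control replicate 1, control replicate 3 or SMA replicate 1) and 4 (without control replicate 2) fell when any 1 library was left out. No gene of 17 in the circadian clock was called. Igfbp3, a binding protein of insulin-like growth factors, was at 8.26, 9.73 and 8.22 FPKM in the controls and at 13.53, 14.21 and 13.28 FPKM in SMA brain (log2 change 0.64, adjusted p = 0.0655). Among 9 genes of the SMN complex list Gemin4 and Strap were called higher, with log2 changes of 0.81 and 0.18 (adjusted p = 0.225 for Gemin4). The call of Strap was lost without control replicate 1, control replicate 3, SMA replicate 2 or SMA replicate 3, and also with a replicate block. In a model of all 20 libraries neither Gemin4 nor Strap was called.

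Neuronal genes showed few calls. For reference, 4.73% of all genes were called higher and 5.17% lower. Of 21 genes of synaptic vesicle release 2 fell, Stx1a and Unc13a, which act in vesicle fusion and priming (both -0.23 on the log2 scale), and none rose. The lower count of this list was 0 without control replicate 1, control replicate 2 or SMA replicate 1, 1 without SMA replicate 3 and 4 without control replicate 3. Stx1a was not called without control replicate 3 or with a replicate block. With the Xist level as a covariate neither Stx1a nor Unc13a was called. No gene was called among 5 neurofilament genes, 7 cholinergic and motor neuron genes, 17 immature neuron genes or 11 genes of cerebellar granule cells. Without control replicate 3, however, 4 granule cell genes were higher, and without control replicate 2, 2 immature neuron genes were lower. The GABAergic and striatal lists each had 1 higher gene, the cortical and hippocampal excitatory list 1 lower, the receptor subunit list 1 in each direction and the voltage-gated channel list 2 lower. These small counts moved with single libraries, and without control replicate 3 the lower count was 5 for the excitatory, 3 for the receptor subunit and 4 for the channel list, while 3 striatal genes were higher without control replicate 1 or SMA replicate 2. Of 13 measured hypothalamic peptide genes 4 rose, including Avp, the vasopressin precursor, from 9.03, 5.26 and 8.17 FPKM to 15.28, 11.08 and 12.5 FPKM (log2 change 0.81, adjusted p = 0.296). Th, the rate-limiting enzyme of dopamine synthesis, was at 2.87, 3.13 and 3.86 FPKM in the controls and at 5.47, 4.84 and 6.89 FPKM in SMA brain (log2 change 0.78, adjusted p = 0.202). The dopamine transporter gene Slc6a3 was the other of 6 monoaminergic genes called higher, and it lost its call without control replicate 1, control replicate 3, SMA replicate 1 or SMA replicate 3, and with a replicate block. Without control replicate 2, 3 monoaminergic genes were higher. The hypothalamic count was 2 without control replicate 2 or SMA replicate 3 and 6 without control replicate 3. All 13 measured Purkinje cell genes had a log2 change above 0, but 2 were called, and this count was 0 without control replicate 1 and 7 without SMA replicate 3. None of 20 measured myelin genes was called, and the Mbp values above show how far libraries of 1 group lay apart. Of 18 oligodendrocyte precursor genes Lhfpl3 was called higher, and Gpr17 and Matn4 lower, with log2 changes of 0.28, -0.36 and -0.27. Matn4 lost its call without control replicate 2, control replicate 3 or any single SMA replicate, and with a replicate block. Of this list 4 genes fell without control replicate 1 and 1 fell without control replicate 2, SMA replicate 2 or SMA replicate 3, and 2 rose without SMA replicate 3.

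Genes of cell division were lower in direction but not stably called. Of 44 measured cell cycle genes 43 had a log2 change below 0, with a median of -0.47. Called lower were 9 (20.5%, against 5.17% of all genes). The median ran from -0.69 without control replicate 1 to -0.25 without SMA replicate 3. The lowest p values belonged to Mcm3, a subunit of the replicative helicase, the mitotic kinase gene Plk1, the cyclin gene Ccnb2 and the spindle gene Nusap1, with log2 changes of -0.72, -0.78, -0.84 and -0.85 (adjusted p = 0.401, 0.403, 0.416 and 0.426). Plk1 passed the filter through the controls, as it averaged under 1 FPKM in SMA brain. Mki67, the proliferation antigen, chosen after its values were seen, was at 3.07, 4.21 and 5.24 FPKM in the controls and at 2.99, 3.88 and 1.13 FPKM in SMA brain. The groups overlapped, with SMA replicate 3 the lowest and control replicate 3 the highest. The number of lower genes was 0 without control replicate 3, 2 without SMA replicate 3, 4 without control replicate 2, 5 without SMA replicate 1 and 19 without SMA replicate 2. It was 34 with the Xist level as a covariate, and 0 of 12 among genes averaging 5 FPKM or more. Neural progenitor markers were not called (0 of 14).

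Small nuclear RNAs, the targets of SMN-dependent assembly, changed in both directions. They were measured in cytoplasmic lysates, so these values are not whole-cell levels. Of 18 snRNA genes measured, 5 rose and 4 fell, or 50% against 9.90% of all genes. The sequences of Rnu11 and Rnu12, the U11 and U12 snRNAs of the minor spliceosome, are shown because both fell, together with that of Gm22973, the snRNA gene that rose most (Gencode M21 transcripts, GRCm38, T for U). Capitals mark the letters ATTTTTG or ATTTTTTG of a site for Sm proteins in Rnu11 and Rnu12, which 4.70% of 1383 snRNA transcripts hold. ATTTTTG also stood in Gm22973 (bases 99 to 105, in lower case) and in the other U2-like genes described below. Among the measured snRNA genes the site was thus not particular to those that fell. In Gm22973 capitals mark its 9 differences from Rnu2-10, a U2 snRNA gene to which it aligned over all 191 bases (95.3% identity). They were C67T, C78T, A107G, G109A, C148T, G152A, C170T, C179T and G183A, counted from 1 at the 5′ end with the Rnu2-10 base first.
Rnu11: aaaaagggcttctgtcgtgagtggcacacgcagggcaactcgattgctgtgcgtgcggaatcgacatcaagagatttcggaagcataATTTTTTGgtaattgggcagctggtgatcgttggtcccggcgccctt
Rnu12: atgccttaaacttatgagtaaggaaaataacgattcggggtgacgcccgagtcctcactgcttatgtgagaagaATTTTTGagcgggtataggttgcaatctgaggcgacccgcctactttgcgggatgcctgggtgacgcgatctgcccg
Gm22973: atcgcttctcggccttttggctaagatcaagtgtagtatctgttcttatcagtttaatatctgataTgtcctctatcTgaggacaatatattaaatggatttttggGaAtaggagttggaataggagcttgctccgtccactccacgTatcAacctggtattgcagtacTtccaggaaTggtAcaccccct
Rnu12 (chr15:83149644-83149794) measured 1205.26, 959.78 and 860.45 FPKM in the controls and 524.58, 532.14 and 273.94 FPKM in SMA brain (log2 change -1.23, SE 0.27, adjusted p = 0.209). Rnu11 (chr4:132270080-132270213) measured 287.1, 224.97 and 206.51 FPKM in the controls and 168.19, 136.98 and 104.1 FPKM in SMA brain (log2 change -0.82, SE 0.19, adjusted p = 0.241). Neither gene had overlapping groups. In a model of all 20 libraries Rnu12 was still called and Rnu11 was not. Of 7 U2-like genes 4 were called higher and none lower. The remaining snRNA gene called higher was Gm23741, closest to Rnu1a1, a U1 snRNA gene (76.2% identity). Its log2 change was 1.45 (SE 0.23, adjusted p = 0.0929).

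Gm22973 (chr12:59040335-59040525) was at 56.72, 56.56 and 54.09 FPKM in the controls and at 448.74, 656.87 and 307.54 FPKM in SMA brain (log2 change 3.01, SE 0.24, adjusted p = 0.00974). Gm26316, which shares 99.5% of its bases with Rnu2-10, went from 845.63, 686.49 and 845.92 FPKM to 1397.92, 2162.5 and 1465.74 FPKM (chr11:101604850-101605040; log2 change 1.06, adjusted p = 0.119). The U2-like genes Gm24497 and Gm25360 changed by 0.86 and 0.74 (adjusted p = 0.188 and 0.398), and Gm25360 was not called without control replicate 3 or SMA replicate 2. Neither Gm24497 nor Gm25360 was called in a model of all 20 libraries. Other U2-like genes, Gm23971, Gm25939 and Gm25813, were not called, with log2 changes of -0.23, -0.04 and 0.41. Gm24265 and Gm25541 were called lower by 0.87 and 0.77 on the log2 scale (adjusted p = 0.479 for both). Neither call was kept in all of the fits that left out 1 library. Neither gene had a close match among the named snRNA genes. Those covered only U1, U2, U5, U6, U7, U11 and U12, so other kinds of snRNA could not be matched. The U2-like copies share most of their sequence, so that reads can be split among them, and FPKM of such short RNAs are uncertain. All snRNA genes together took 13.65, 12.76 and 11.72% of the summed FPKM of the controls and 10.55, 9.79 and 8.18% of that of the SMA libraries. Gm24265 and Gm24407, a gene pair on chromosome 5, held 79.7 to 81.7% of this sum in the controls and 64.7 to 74.1% in SMA brain. The remaining snRNA genes took 2.50, 2.58 and 2.16% of the summed FPKM of the controls and 2.73, 3.37 and 2.89% of that of the SMA libraries, without a lower share in SMA brain.

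**Figure D4:**
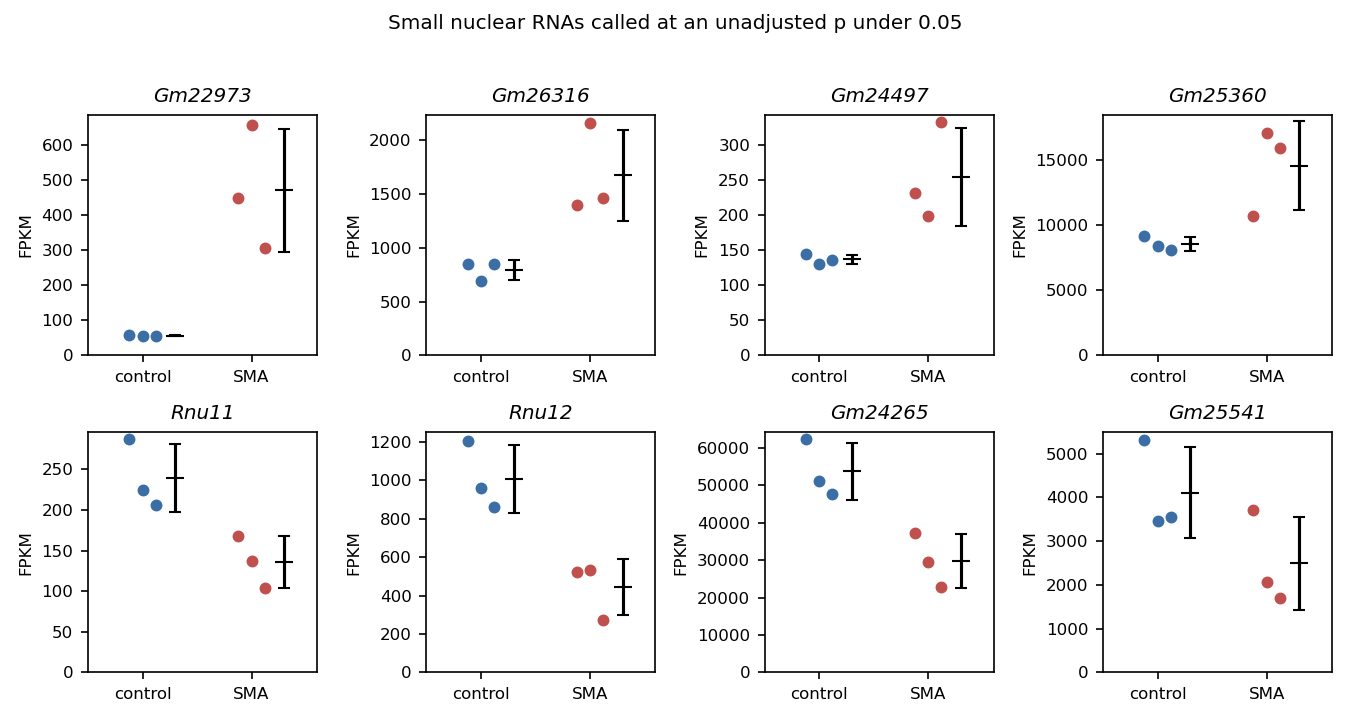
FPKM of 8 snRNA genes in each late total RNA library; points are the 3 control and 3 SMA libraries and bars the mean ± SD. The U2-like gene Gm22973 lies between 307.54 and 656.87 FPKM in SMA brain against 54.09 to 56.72 FPKM in the controls, and Rnu12 between 273.94 and 532.14 against 860.45 to 1205.26 FPKM.

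The late changes were set beside those in late polysomal RNA (3 libraries per group, ribosome-bound fractions) and in early-symptomatic total RNA (2 libraries per group), each fitted alone. In polysomal RNA 5.47% of 14259 genes were called higher and 5.58% lower, and in early total RNA 5.05% of 14912 genes were called higher and 4.44% lower. Of the 22 endothelial genes above 18 were lower in late polysomal RNA and 16 in early total RNA. Log2 changes of Tek were -1.65 in late total, -1.31 in late polysomal and -1.74 in early total RNA, and those of Cldn5 were -1.03, -1.01 and -1.36. Gm22973 changed by 3.01, 2.90 and 2.87. Agt changed by 1.69, 1.83 and 1.27. The sign of each of these changes was the same in the 3 sets. Other snRNA genes that were higher in late total RNA differed in late polysomal RNA. There Gm24497 was called higher (1.02), whereas Gm26316, Gm25360 and Gm23741 were not called (0.14, 0.31 and -0.04). Whether polysomal and total libraries came from the same brains is not stated, so the late sets are no independent support of each other.

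The difference between stages in total RNA was tested as the interaction of stage and genotype, and 0 of 14637 genes (0.00%) passed an adjusted p under 0.05 with limma, against 1483 at an unadjusted p under 0.05. The adjusted p of each gene named here was 0.483 or more. Of 16 choroid plexus genes measured at both stages none was called in early total RNA (1 of 17 with the early filter alone), where Ttr had a log2 change of -0.40 against 0.88 at the late stage (interaction unadjusted p = 0.0044), while 8 of 17 were higher in late polysomal RNA. Mt1 and Mt2 changed by 0.49 and 0.56 early and by 1.24 and 1.36 late, with an unadjusted interaction p of 0.142 and 0.217. Of 21 glucocorticoid-induced genes 8 were higher early, with a median log2 change of 0.44, beside 10 and 0.16 late. Ly6a changed by 0.42 early and by 1.69 late (interaction unadjusted p = 0.000245), and H2-T23 by 0.29 early and by -0.96 late (interaction unadjusted p = 0.000166). Rgs5 changed by -0.88 early and by -1.23 late (interaction unadjusted p = 0.0329). Egfl7 changed by -0.91 early and by -0.03 late (interaction unadjusted p = 0.00163). Of 44 cell cycle genes measured at both stages 31 were lower early. The early log2 changes followed transcript length (Spearman's rho across genes 0.414, against -0.0425 late), and genes are not independent replicates. With a curve on transcript length removed from each library, an alternative added for the early comparison after seeing the data, the early log2 change of Ttr was -0.18, of Mt1 0.72, of Mt2 0.69 and of Egfl7 -0.78. The unadjusted interaction p was then 0.00374 for Ttr, 0.00163 for Ly6a, 0.000131 for H2-T23, 0.00181 for Egfl7 and 0.0642 for Rgs5, so that Rgs5 was no longer under 0.05. The early counts of lower genes were 17 of 22 for the endothelial list and 32 of 44 for the cell cycle list, and 1 of 16 choroid plexus genes was called higher. The unadjusted count of the stage test ran from 624 without early SMA replicate 1 to 4066 without early SMA replicate 2, and without the latter 1053 genes passed the adjusted threshold. Each of these fits left 1 early SMA library, which was assumed to vary like the libraries of the other groups.

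**Figure D5:**
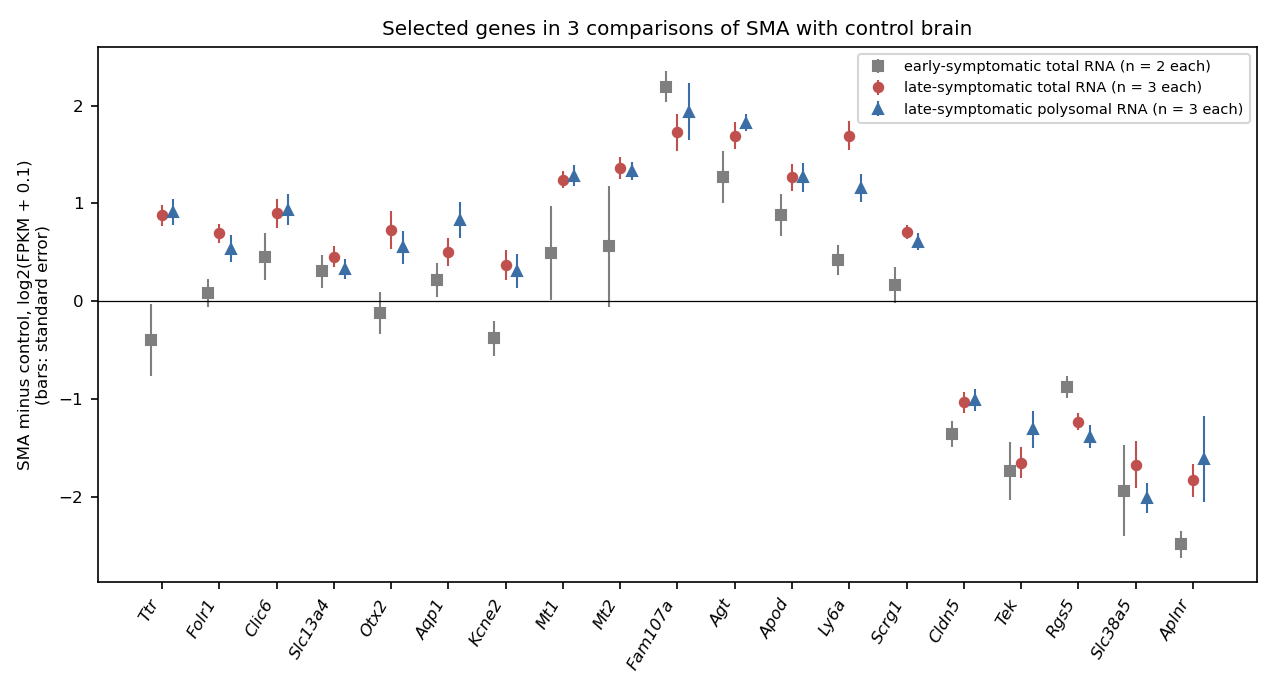
Log2 change ± SE, SMA relative to control, of 19 genes in early total RNA (2 libraries per group), late total RNA (3 per group) and late polysomal RNA (3 per group). Endothelial genes such as Tek lie below 0 in all 3 sets, while Ttr lies at -0.40 early and at 0.88 late in total RNA.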

How the data were processed

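The authors sequenced rRNA-depleted stranded libraries, aligned reads with TopHat (2.0.14) to GRCm38.p4 with Gencode M6 annotation and computed FPKM per gene with Cufflinks (2.2.1), which is the unit of the deposited table. The paper refers to mapped and total reads in its supplementary data, but total counts are not used here. The deposited table does not give the depth, so no counting intervals are given. Nothing in the labels says whether the triplicates were separate animals, and p-values measure the spread between these samples. FPKM were compared as log2(FPKM + 0.1) in limma (3.58.1, R 4.3.3; moderated variances with a trend), genotype being the sole term, for genes averaging 1 FPKM or more and above 0 in all 6 libraries; 520 of 15059 genes were dropped for a 0. The authors' own tests used alignments and are not repeated.

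The comparison, its members and the 49 gene lists were chosen with earlier results of these data known. Named genes were Smn1, the 12 non-overlapping protein-coding genes with the largest change in each direction, every gene at an adjusted p under 0.05, up to 3 non-coding genes in each direction, and per list up to 4 called members with the smallest p and the most abundant member. Not all of these are described. Other list members, such as the uncalled genes Slc2a1, Tsc22d3 and Mdm2, were named in addition to this rule. Genes of the polysomal and early comparisons passed the same filter within their own libraries. Sequences were aligned with blastn (2.17.0). Alternatives comprised other pseudocounts, filters, scalings, a replicate block, the Xist level as a covariate and the omission of single libraries. Figures were drawn with matplotlib (3.10.9).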

Additional observations from a re-analysis of the deposited data

How the results depend on the processing

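The deposited FPKM do not give the depth behind them, so what depth limits is not given here. The number of called genes, 1439, was 417 at p under 0.01 and 29 at an adjusted p under 0.05 (688 higher became 203 and 16, and 751 lower became 214 and 13); 484 were lower with a mean of at least 5 FPKM, where fewer genes were tested. Without single libraries 1022 to 1668 were called. The 29 genes at an adjusted p under 0.05 became 89 in a model of all 20 libraries, 13 with the Xist level as a covariate and 0 to 18 without single libraries. With a replicate block 7 genes passed that threshold. The same numbers do not pair the samples (correlations of deviations 0.00186, -0.0726 and -0.0864). Of 125 called genes named by the rule, 110 stayed called under the block, and none reversed under any alternative.

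With a mean of at least 5 FPKM, and so fewer genes, list medians moved from -0.59 to -0.30 (endothelial), -0.02 to 0.13 (tip cell), -0.31 to -0.71 (pericyte), -0.07 to 0.031 (basement membrane), 0.11 to -0.017 (reactive glia), -0.04 to -0.12 (iron handling) and 0.05 to 0.14 (SMN complex). With genes above 0 in at least 1 library they moved from -0.26 to -0.073 (erythroid) and 1.24 to 0.94 (metallothionein), and with a pseudocount of 1 from 0.37 to 0.23 (choroid plexus). Without single libraries the medians ran from 0.0099 to 0.090 (GABAergic), -0.029 to 0.090 (SMN complex), -0.25 to -0.091 (blood-brain barrier), 0.22 to 0.41 (choroid plexus), 0.12 to 0.23 (glucocorticoid), -0.038 to 0.0077 (hypoxia), -0.047 to 0.049 (insulin-like growth factor), -0.15 to -0.055 (oligodendrocyte precursor), -0.047 to 0.18 (perivascular macrophage), 0.020 to 0.22 (reactive glia), -0.11 to 0.0083 (synaptic vesicle) and -0.41 to -0.090 (smooth muscle). The stage test gave 624 to 4066 genes at an unadjusted p under 0.05 without single libraries and 0 to 1053 at an adjusted p under 0.05. Causes other than the number of genes or libraries were not tested.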

Other observations

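Of 14 small Cajal body RNA genes 5 were called lower and none higher (35.7% called, against 9.90% of all genes), with a median log2 change of -0.45. Of 79 small nucleolar RNA genes 9 were lower and 2 higher, and 57 had a log2 change below 0 (median -0.20). Over all genes 5.17% were lower and 4.73% higher. In either direction 13.9% of the small nucleolar RNA genes were called, against 9.90% of all genes. Both kinds of RNA were measured in cytoplasmic lysates. FPKM of such short RNAs are uncertain. Of 54 histone genes 46 had a log2 change below 0, but 2 were called higher and 3 lower, which is 9.26% against 9.90% of all genes. Within 10 megabases of Smn1, 10 of 93 genes were called (10.8%). Further genes with a large change were the acute-phase gene Itih2, at 1.59, 1.59 and 1.5 FPKM in the controls and 5.14, 4.16 and 3.39 FPKM in SMA brain (log2 change 1.36, adjusted p = 0.0341), and Apod, a lipid carrier, at 16.84, 17.54 and 21.05 FPKM in the controls and 52.97, 43.46 and 37.81 FPKM in SMA brain (adjusted p = 0.0235). The osteocalcin gene Bglap went from 3.31, 2.87 and 0.9 FPKM to 0.17, 0.3 and 0.5 FPKM (log2 change -2.43, adjusted p = 0.202), and passed the filter through the controls.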
